A study of Mus musculus with 8 samples.

Results

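The solute carriers are the largest superfamily of membrane transporters, and their transcripts were described here in macrophages kept with interleukin 4 (IL-4) or with PBS. Genes were taken where the symbol was Slc, a family number, the letter a and a member number, and where the base mean, the average normalized count over the libraries of a table, was 20 or more in at least 1 of 2 tables. The members were thus selected on symbol and base mean, and this gave 180 genes of the 14485 in the tables. Of 229 genes with such a symbol, 49 lay below the limit. Both tables held 178 of the 180, and 172 reached the limit in both. The other 8 reached it with IL-4 alone, so a higher level with IL-4 was built into their choice, and no gene reached it with PBS alone. Just inside the limit stood Slc4a8, with base means of 20.7 with IL-4 and 14.0 with PBS, Slc22a23 (20.9 and 7.18) and Slc38a4 (23.04 and 5.64). Just outside it stood Slc25a47 (16.5 and 16.1), Slc13a2 (16.02 and 9.59) and Slc26a10 (11.5 and 15.2). The symbol rule leaves out relatives such as Slc35b to Slc35f, Slco, Ucp and Mpc genes. It also takes in genes that encode no transporter, among them Slc9a3r1 and Slc9a3r2, which encode scaffold proteins, Slc4a1ap, Slc7a6os and Slc2a4rg-ps.

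The macrophages were grown from the marrow of female mice aged 12 weeks, either lacking, by their label, the NF-κB-inducing kinase NIK (NIK KO) or wild type (WT). Marrow cells were cultured for 7 days with 30% L929-conditioned medium, a source of the growth factor M-CSF, and replated in 5%. The groups were NIK KO with IL-4 at 20 ng/mL, WT with IL-4, NIK KO with PBS and WT with PBS, each for 6 hours. Each group had 2 libraries, and the same 2 mice per genotype gave both treatments. No label states which part of the gene was removed, in which cells, or the mouse strain. The comparisons ask how transporter transcripts stood with IL-4 over PBS and in NIK KO over WT.

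Transporters set what a macrophage can take up, keep or release. Arginine enters through cationic amino acid transporters and feeds arginase, the hallmark enzyme of IL-4-treated mouse macrophages. Iron from engulfed red cells leaves through ferroportin, zinc is moved by the exporters of family 30 and the importers of family 39, and the family 25 carriers exchange metabolites across the inner mitochondrial membrane.

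Map3k14, the gene of NIK, stood above WT in libraries with the label NIK KO. Its recovered mean normalized counts were 831.9 in NIK KO and 418.5 in WT libraries with IL-4, and 902.0 in NIK KO and 424.9 in WT libraries with PBS. The genotype label and this gene therefore run opposite ways. If the direction of the tables were turned, every genotype difference below would change sign and the genotype means would trade places. The base means, and the IL-4 over PBS levels made from them, would stay as they are. All 12 macrophage marker genes had base means of 20 or more in both tables. The summed level of 10 fibroblast markers was 187.9 in NIK KO and 498.5 in WT libraries with IL-4, and 128.9 and 135.7 with PBS, where 8 of the 10 have a row. Among the 7 with a base mean of 20 or more with IL-4, 5 were lower in NIK KO and 2, Fbn1 and Pdgfrb, higher. Of 10 erythroid markers 5 have a row with IL-4 and 5 with PBS, not all the same. They summed to 154.0 in NIK KO and 340.7 in WT libraries with IL-4, and to 103.4 and 96.1 with PBS. Fewer cells of a type and less RNA per cell cannot be told apart in such bulk libraries.

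Among transporters, IL-4 went with far more transcript of Slc7a2, which takes up arginine, and of Slc30a4, which moves zinc into vesicles, and with less of the iron carriers Slc25a37 and Slc40a1. The IL-4 over PBS level was the ratio of the base means divided by its median over 10939 genes with base means of 20 or more in both tables, which was 1.21-fold. The tables were normalized separately and hold no value per library, so this level carries no test. Of the 172 transporters, 134 lay within 1.5-fold of the median of all genes either way. That share was not counted over all genes, whose quartiles, given below, lay closer together than those of the transporters. Past 2-fold, 8 were higher with IL-4, 4.65% of the 172, beside 2.76% of all genes. Another 7 were lower, 4.07% of the 172, beside 2.62% of all genes. Without division by the median, which raises the ratio of every gene alike, 13 were past 2-fold higher and 5 lower. The shares of all genes were not counted that way, so these 2 counts have nothing to stand beside. In both genotypes taken apart, 5 were past 2-fold higher (2.19% of all genes) and 6 lower (1.88% of all genes). The median over the transporters was 0.04 on the log2 scale, with quartiles of -0.27 and 0.30, beside quartiles of -0.23 and 0.19 over all genes.

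**Figure D1:**
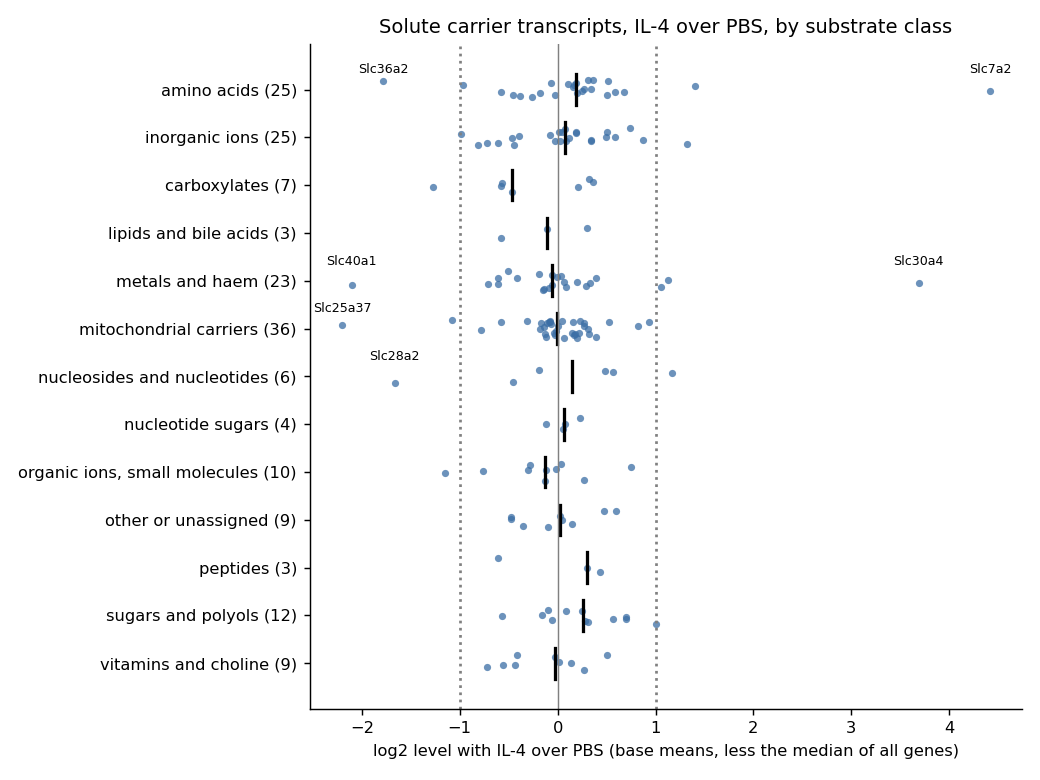
Points are the 172 transporters with base means of 20 or more in both tables, in rows by substrate class with the number of genes in brackets; the x axis is the log2 IL-4 over PBS level, black bars are class medians and dotted lines mark 2-fold. Class medians lie between -0.47 and 0.30, while Slc7a2 and Slc30a4 stand alone at 4.42 and 3.69 and Slc25a37 and Slc40a1 at -2.20 and -2.10.

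Slc7a2, the cationic amino acid transporter CAT2 (ENSMUSG00000031596, chromosome 8), had the highest ratio. Its mean normalized count was 7021 in NIK KO and 7167 in WT libraries with IL-4, and 262.5 in NIK KO and 288.2 in WT libraries with PBS. That is a 21.4-fold level over PBS, 22.1-fold in NIK KO and 20.7-fold in WT libraries. The groups of one treatment lay close together and those of the other treatment far away. Only 20 of the 10939 genes were past 10-fold higher (0.183%), and Slc7a2 and Slc30a4 were the transporters among them. Per kilobase of the longest transcript, Slc7a2 stood at 896.8 normalized counts with IL-4 and at 34.8 with PBS. Slc7a1, the cationic amino acid transporter CAT1, was at 315.8 in NIK KO and 307.2 in WT libraries with IL-4 and at 226.0 and 180.8 with PBS, 1.27-fold. Arg1, arginase itself, was 265.8-fold higher with IL-4.

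The amino acid class held 25 genes in both tables, of which 16 lay above and 9 below the median of all genes, with a class median of 0.19. Slc6a9, the glycine transporter GlyT1, averaged 155.5 in NIK KO and 180.5 in WT libraries with IL-4, and 55.0 and 50.3 with PBS, a 2.65-fold level. Slc36a2, a proton-coupled transporter of small amino acids, was lowest. It averaged 36.7 in NIK KO and 60.0 in WT libraries with IL-4, against 118.3 and 157.3 with PBS, 0.291 times the PBS level. Slc7a7 and Slc7a8, light chains that pair with Slc3a2, stood at 0.514 and 0.668 times the PBS level, and the heavy chain Slc3a2 itself at 0.729 times. Slc7a6 and Slc7a5, light chains that pair with the same partner, were at 1.29-fold and 1.42-fold. Slc7a11, the cystine and glutamate antiporter, was at 0.883 times, Slc1a5, a carrier of neutral amino acids such as glutamine, at 1.20-fold, and Slc38a1 and Slc38a2, glutamine carriers of the plasma membrane, at 1.15-fold and 0.835 times. The taurine transporter Slc6a6 had the highest level of the class per kilobase with IL-4, 2192 normalized counts and 1633 with PBS, while Slc3a2 was highest with PBS, at 1953 with IL-4 and 2222 with PBS.

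Zinc transporters gave 3 of the 8 genes past 2-fold higher. Slc30a4, the vesicular zinc transporter ZnT4 (ENSMUSG00000005802, chromosome 2), averaged 3730 in NIK KO and 3530 in WT libraries with IL-4, and 255.8 in NIK KO and 211.0 in WT libraries with PBS. Its level over PBS was 12.9-fold, 12.1-fold in NIK KO and 14.0-fold in WT libraries. Slc39a6, the zinc importer ZIP6, averaged 2254 in NIK KO and 2092 in WT libraries with IL-4, and 929.9 and 717.1 with PBS, 2.19-fold. Slc30a1, the zinc exporter ZnT1 of the plasma membrane, averaged 1193 in NIK KO and 951.5 in WT libraries with IL-4, and 510.9 and 344.1 with PBS, 2.08-fold. In NIK KO libraries alone Slc30a1 stood at 1.93-fold, just under the limit. The 6 genes of family 30 had a median of 0.00 and the 11 of family 39 one of 0.03, so the zinc families as a whole stayed near the median of all genes. Slc39a14, the importer ZIP14, was at 0.748 times the PBS level.

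Slc30a1 is known to be induced by zinc through the factor MTF1 and metal response elements. The 250 bases before the start sites of both exporters are shown for this reason, 5′ to 3′ on the strand of the gene, from RefSeq on GRCm38.p6. Capitals mark the core of such an element, TGCACNC or TGCGCNC on either strand. The windows are chr2:122702664-122702913 on the minus strand for Slc30a4 and chr1:191906531-191906780 on the plus strand for Slc30a1.
Slc30a4: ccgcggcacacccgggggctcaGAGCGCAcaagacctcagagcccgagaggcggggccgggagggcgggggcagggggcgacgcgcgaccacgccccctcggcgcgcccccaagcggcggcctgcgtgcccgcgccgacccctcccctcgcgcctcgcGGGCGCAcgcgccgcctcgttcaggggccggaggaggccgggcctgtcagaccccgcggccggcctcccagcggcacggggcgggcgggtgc
Slc30a1: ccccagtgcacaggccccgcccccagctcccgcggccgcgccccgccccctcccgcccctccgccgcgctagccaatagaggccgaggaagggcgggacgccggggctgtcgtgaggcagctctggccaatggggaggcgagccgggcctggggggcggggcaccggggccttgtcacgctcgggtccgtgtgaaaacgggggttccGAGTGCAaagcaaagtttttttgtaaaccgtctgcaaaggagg
The Slc30a4 window held 2 cores and 82.8% G and C, and the Slc30a1 window 1 core and 71.2%. Of 32851 promoter windows of the same kind 21.4% held a core, as did 40 of 133 transporters found in that table (30.1%). Among those past 2-fold, a core was in 2 of 5 higher with IL-4, these 2 exporters, and in 1 of 4 lower, Slc22a4. The spaced palindrome of STAT6, the factor that IL-4 activates, written TTCNNNNGAA, was in neither window. It was in 5.85% of all windows and in 4 of the 133 (3.01%). A match describes these letters and not a bound site. Mtf1 itself averaged 447.1 in NIK KO and 344.8 in WT libraries with IL-4, and 336.8 and 360.2 with PBS.

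Several transcripts of iron handling were lower with IL-4. Slc25a37, mitoferrin 1, which brings iron into mitochondria (ENSMUSG00000034248, chromosome 14), averaged 417.4 in NIK KO and 357.4 in WT libraries with IL-4, and 1382 in NIK KO and 1576 in WT libraries with PBS. It stood at 0.217 times the PBS level, 0.250 times in NIK KO and 0.189 times in WT libraries. Slc40a1, the iron exporter ferroportin (ENSMUSG00000025993, chromosome 1), averaged 128.6 in NIK KO and 112.6 in WT libraries with IL-4, and 459.3 and 399.8 with PBS, 0.233 times the PBS level. Both groups with IL-4 lay below both with PBS for these 2 genes. Slc25a28, mitoferrin 2, was at 0.475 times, averaging 262.6 in NIK KO and 284.7 in WT libraries with IL-4 and 483.7 and 472.4 with PBS, and its ratio in WT libraries alone, 0.503, did not pass 2-fold. Slc11a1, the metal transporter Nramp1 of phagosomes, was at 0.612 times with 4517 in NIK KO and 4497 in WT libraries with IL-4 and 5951 and 6272 with PBS. Slc11a2, the divalent metal importer DMT1, was at 0.994 times and the haem transporter Slc48a1 at 0.909 times.

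Genes of iron handling outside the superfamily give the setting. Tfrc, the transferrin receptor, was 5.26-fold higher with IL-4, with 6086 in NIK KO and 4965 in WT libraries against 1015 and 726.4 with PBS. Hmox1, which degrades haem, was at 0.461 times, Fth1, the heavy chain of ferritin, at 0.650 times and Ftl1, its light chain, at 0.712 times. Of 16 such genes for arginine, iron, glucose and glutamine handling, 2 were past 2-fold higher (Arg1 and Tfrc) and 1 lower (Hmox1). None of the 30 measured solute carriers under other symbols passed 2-fold, and Slco3a1 came nearest at 0.5003 times. The 3 erythroid markers with base means of 20 or more in both tables had a median of 1.06 on the log2 scale with IL-4 over PBS, in the other direction from Slc25a37 and Slc40a1. Their part in these levels was not tested.

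**Figure D2:**
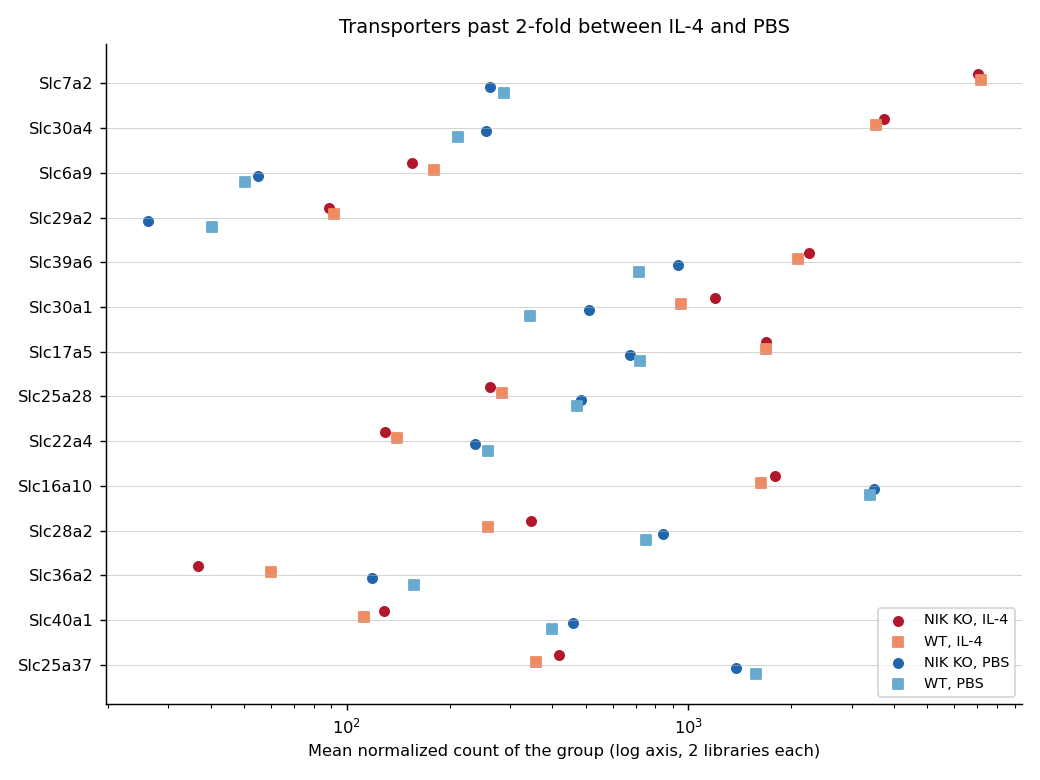
Mean normalized counts of the 4 groups for 14 of the 15 transporters past 2-fold either way, on a log axis, ordered by the IL-4 over PBS level; circles are NIK KO and squares WT, red tones IL-4 and blue tones PBS. Slc7a2 reaches 7021 in NIK KO and 7167 in WT libraries with IL-4, and for each gene the genotypes of a treatment lie nearer to each other than the treatments do. The genes were chosen by their IL-4 over PBS level, so a gap between treatments is built into the choice.

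Transporters of inorganic ions had a median of 0.08 over 25 genes. Slc12a7, a potassium chloride cotransporter, was at 1.83-fold, with 2236 in NIK KO and 1727 in WT libraries with IL-4 and 940.5 and 858.6 with PBS, and Slc26a2, a sulfate transporter, was at 1.67-fold. At the low end Slc4a3, an anion exchanger, was at 0.503 times the PBS level and Slc8a1, the sodium and calcium exchanger NCX1, at 0.569 times. Slc12a2, the cotransporter NKCC1, was at 1.14-fold. The anion exchanger Slc4a2 had the highest level per kilobase in the class, 459.6 normalized counts with IL-4.

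The 36 mitochondrial carriers of family 25 were split evenly, 18 above and 18 below the median of all genes, and their own median was 0.00. Besides the mitoferrins, none passed 2-fold. The highest were Slc25a13, an aspartate and glutamate carrier, at 1.91-fold with 1284 in NIK KO and 1181 in WT libraries with IL-4 against 515.5 and 552.6 with PBS, and Slc25a25, an ATP-Mg and phosphate carrier, at 1.77-fold. Carriers of adenine nucleotides, cofactors and pyrimidines had a median of 0.17 over 14 genes and amino acid carriers 0.17 over 6. Carboxylate and carnitine carriers had a median of -0.09 over 4, among them the citrate carrier Slc25a1 at 0.925 times and the carnitine and acylcarnitine carrier Slc25a20 at 0.955 times. The ADP and ATP carrier Slc25a5 had the highest level per kilobase of all 180 genes with IL-4, 5268 normalized counts, and 3032 with PBS. Of its 31-base words 67.1% also occur in transcripts of other genes, so its level is uncertain. Ucp2, a mitochondrial carrier under another symbol, was at 0.997 times.

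Sugar and polyol transporters had a median of 0.26 over 12 genes, 8 of them above the median of all genes. Slc17a5, the lysosomal sialic acid exporter sialin, lay right at the 2-fold limit and counts among the 8, with 1690 in NIK KO and 1685 in WT libraries with IL-4 and 675.9 and 723.6 with PBS. Slc2a6, the glucose transporter family member GLUT6, was at 1.48-fold, averaging 6169 in NIK KO and 5796 in WT libraries with IL-4 and 3193 and 3489 with PBS. The glucose transporters Slc2a1 (GLUT1) and Slc2a3 (GLUT3) were at 1.06-fold and 0.898 times. Slc37a2, a sugar phosphate exchanger, was at 1.24-fold, and Slc37a1, its relative, was lowest at 0.676 times. The 12 transporters of lysosomal membranes, drawn from several classes, had a median of 0.14.

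Nucleoside carriers ran both ways. Slc29a2, the equilibrative transporter ENT2, averaged 88.9 in NIK KO and 91.9 in WT libraries with IL-4, and 26.1 and 40.4 with PBS, 2.25-fold, with 1.90-fold in WT libraries alone. Slc28a2, the concentrative purine nucleoside transporter CNT2, averaged 346.7 in NIK KO and 258.5 in WT libraries with IL-4, and 842.9 and 750.6 with PBS, 0.315 times. Of the words of Slc28a2 51.0% are shared, mainly with Gm14085, whose base means were 4.02 with IL-4 and 11.2 with PBS. Slc29a1 (ENT1) was at 0.876 times and Slc29a3, the lysosomal ENT3, at 1.397-fold.

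The 7 genes placed with carboxylates had the lowest class median, -0.47, with 3 above and 4 below the median of all genes. That value is the level of Slc13a3, whose genotype effect had a large error, given below. In WT libraries alone the class stood at -0.25, and lipids and bile acids were lower at -0.29. Slc16a10, which carries aromatic amino acids although its family is named for monocarboxylates, averaged 1788 in NIK KO and 1631 in WT libraries with IL-4, and 3481 and 3388 with PBS, 0.413 times. Slc16a3, the lactate exporter MCT4, was at 0.668 times with 1524 in NIK KO and 1489 in WT libraries with IL-4 and 1821 and 1919 with PBS, while Slc16a1 (MCT1) was at 1.16-fold. Slc16a13 was highest at 1.28-fold. Among carriers of organic ions and other small molecules, Slc22a4, the ergothioneine transporter OCTN1, averaged 129.3 in NIK KO and 139.9 in WT libraries with IL-4, and 237.3 and 258.9 with PBS, 0.450 times. Slc18a1, a vesicular monoamine transporter, was highest there at 1.68-fold, and the creatine transporter Slc6a8 was at 0.811 times.

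In the remaining classes none of the 172 genes passed 2-fold. The peptide and histidine transporter Slc15a3 (PHT2) was at 1.23-fold and Slc15a4, its lysosomal relative, at 0.658 times. Among vitamin and choline transporters Slc44a2, a choline transporter-like protein, was lowest at 0.608 times and Slc19a2, a thiamine transporter, highest at 1.42-fold. Slc27a1, a fatty acid transport protein, was at 0.672 times. The scaffold gene Slc9a3r1 was at 0.718 times and Slc46a3 highest among unassigned genes at 1.52-fold. The 4 nucleotide sugar transporters lay within 0.919 and 1.18 times the PBS level, and Slc35a2, the UDP-galactose transporter, had the highest level per kilobase among them, 172 normalized counts with IL-4.

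Of the 8 genes at the limit through IL-4 alone, Slc9a2, a sodium and proton exchanger, averaged 66.2 in NIK KO and 61.6 in WT libraries with IL-4 and 19.4 and 14.1 with PBS. Slc38a4 averaged 12.1 in NIK KO and 33.98 in WT libraries with IL-4 and 5.37 and 5.91 with PBS. Slc39a12 and Slc14a1, at 41.2 and 38.6 in NIK KO and 42.0 and 24.4 in WT libraries with IL-4, have no row with PBS.

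Between genotypes no transporter passed the test. With IL-4, 0 of 180 had an adjusted p under 0.05 in the authors' deposited table (DESeq2 Wald test with Benjamini-Hochberg adjustment), where 0.12% of all genes did. At an unadjusted p under 0.05 there were 14 of 180, 7.78%, beside 2.95% of all genes and 3.15% of those with a base mean of 20 or more. Of the 14, 11 were higher in NIK KO (1.62% of all genes) and 3 lower (1.32% of all genes). With PBS, 0 of 178 passed, beside 0.0366% of all genes, and 4 had an unadjusted p under 0.05, 2.25% beside 1.24% of all genes and 1.09% of those with a base mean of 20 or more. Of the 4, 1 was higher (0.534% of all genes) and 3 lower (0.702%). Positive fold changes numbered 107 of 180 with IL-4, beside 48.9% of all genes and 51.0% at a base mean of 20 or more. With PBS they numbered 90 of 178, beside 48.3% and 48.6%. The median over the transporters was 0.07 with IL-4 and 0.00 with PBS on the log2 scale in the authors' deposited tables. Over all genes it was -0.01 in both tables. At a base mean of 20 or more it was 0.005 with IL-4 and -0.007 with PBS. The median standard error of a transporter was 0.25 with IL-4 and 0.33 with PBS. Over all genes with a base mean of 20 or more it was 0.24 and 0.31. The fold change was smaller than its own standard error for 126 of 180 with IL-4 and 146 of 178 with PBS. That share was not counted over all genes, so these 2 counts do not set transporters apart.

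Transcript length moved with the IL-4 fold changes and is given beside these counts. Among all genes with a base mean of 20 or more with IL-4, the median log2 fold change in the authors' deposited table was -0.12 in the shortest 2267 genes and 0.12 in the longest 2267. The median transcript was 3652 bases long for the 180 transporters, 4264 for the 11 that were higher, 5711 for the 3 that were lower and 3381 for all those genes. With the trend on length subtracted, the transporters' median with IL-4 was 0.02. The lower fibroblast and erythroid marker sums in NIK KO libraries with IL-4, given above, fall in the same comparison. Neither their part nor that of length in single genes was tested.

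**Figure D3:**
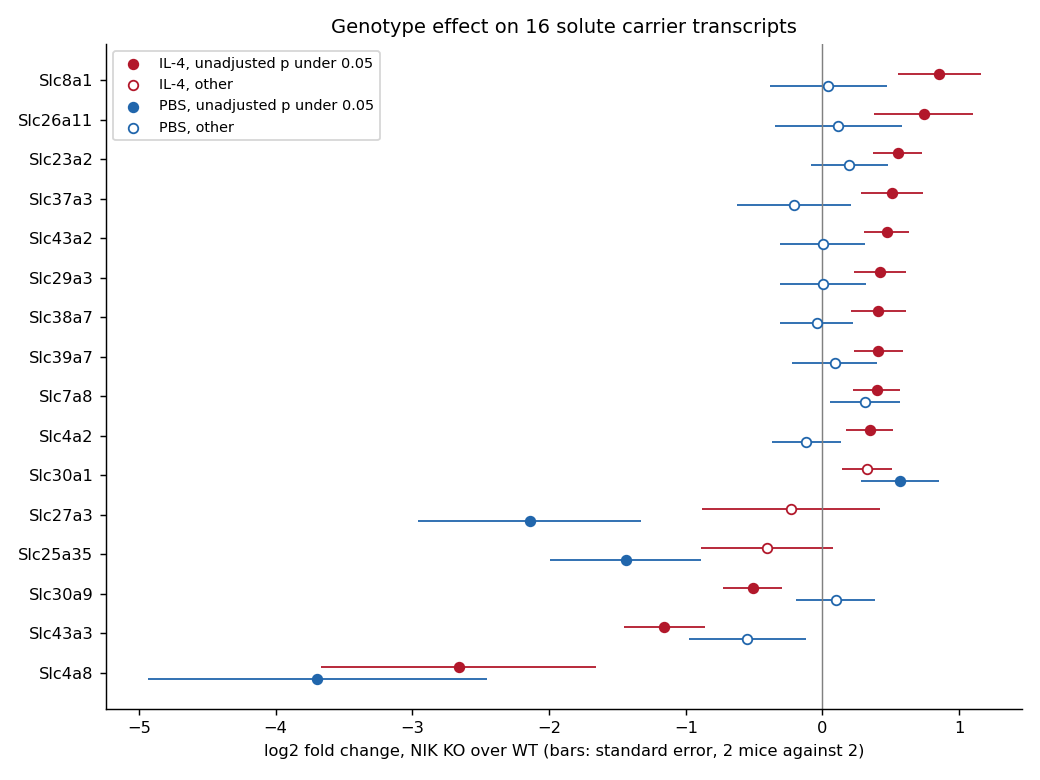
Log2 fold changes of NIK KO over WT from the authors' deposited tables for 16 of the 17 transporters at an unadjusted p under 0.05 in a table (filled points), with standard errors as bars, 2 mice against 2; IL-4 is red and PBS blue. The 10 shown as higher with IL-4 lie between 0.35 and 0.85, Slc43a3 at -1.16, and Slc4a8 is the gene with filled points in both.

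Slc43a3, a carrier of purine nucleobases (ENSMUSG00000027074, chromosome 2), came nearest to a call. It averaged 135.3 in NIK KO and 301.6 in WT libraries with IL-4, and 201.9 in NIK KO and 295.3 in WT libraries with PBS. Its log2 fold change was -1.16 ± 0.30 (SE) with IL-4 in the authors' deposited table, with a DESeq2 p of 9.0e-05 and an adjusted p of 0.0681. With PBS it was -0.55 ± 0.43 in the authors' deposited table, and the difference between treatments was -0.61 ± 0.52 (SE; z test, unadjusted p = 0.242). NIK KO libraries stood low under IL-4, and under PBS the gap was near its error.

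Among amino acid transporters, 3 had an unadjusted p under 0.05 with IL-4, all higher in NIK KO. Slc43a2, the neutral amino acid transporter LAT4, averaged 8625 in NIK KO and 6225 in WT libraries with IL-4, and 6465 and 6457 with PBS. That is 0.47 ± 0.17 with IL-4 and 0.00 ± 0.31 with PBS in the authors' deposited tables (DESeq2 adjusted p = 0.772 with IL-4). Slc7a8, the light chain LAT2, averaged 3825 in NIK KO and 2904 in WT libraries with IL-4, and 4629 and 3723 with PBS, or 0.40 ± 0.17 and 0.31 ± 0.26 in the authors' deposited tables. Slc38a7, a lysosomal exporter of glutamine and asparagine, averaged 917.7 in NIK KO and 691.0 in WT libraries with IL-4, and 669.5 and 689.5 with PBS. Slc7a2 itself was at -0.03 ± 0.15 with IL-4 and -0.13 ± 0.33 with PBS in the authors' deposited tables, within its error in both. Slc38a4 was lowest of the class with IL-4, at -1.49 ± 0.83, and Slc6a12, the betaine and GABA transporter BGT1, lowest with PBS, at -0.58 ± 0.31 in the authors' deposited tables. With PBS 18 of the 26 had a negative fold change and with IL-4 10 of 26. Over all genes with a base mean of 20 or more, 48.6% were positive with PBS and 51.0% with IL-4.

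Inorganic ion transporters had 23 of 27 positive fold changes with IL-4 and 11 of 27 with PBS. The shares over all genes with a base mean of 20 or more were 51.0% and 48.6%. The class median was 0.15 with IL-4 and -0.02 with PBS in the authors' deposited tables. With the trend on length subtracted, the class median with IL-4 was 0.11. Slc8a1 averaged 591.5 in NIK KO and 327.1 in WT libraries with IL-4, and 679.5 and 659.4 with PBS. Its fold change was 0.85 ± 0.30 with IL-4 and 0.04 ± 0.43 with PBS in the authors' deposited tables (DESeq2 adjusted p = 0.806 with IL-4). Its longest transcript, 18464 bases, was the longest of the 180. Slc4a2 averaged 2193 in NIK KO and 1726 in WT libraries with IL-4, and 1476 and 1602 with PBS. Slc26a11, a sulfate and anion transporter, averaged 310.1 in NIK KO and 185.7 in WT libraries with IL-4, and 281.2 and 259.4 with PBS.

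Slc4a8, a sodium-driven chloride and bicarbonate exchanger, was at an unadjusted p under 0.05 in both treatments at very low levels. It averaged 5.65 in NIK KO and 35.8 in WT libraries with IL-4, and 2.01 in NIK KO and 26.1 in WT libraries with PBS. The fold changes were -2.66 ± 1.01 with IL-4 and -3.70 ± 1.24 with PBS in the authors' deposited tables, with a DESeq2 adjusted p of 1.00 in both. The same 2 mice of each genotype stand behind both treatments, so these values are no independent repeat.

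Zinc transporters differed in sign. Slc39a7, the zinc transporter ZIP7 of the endoplasmic reticulum, averaged 3932 in NIK KO and 2964 in WT libraries with IL-4, and 2770 and 2603 with PBS, but 84.1% of its words are shared with other genes, mainly Gm20427. Slc30a9, a zinc transporter of mitochondria, averaged 599.0 in NIK KO and 853.6 in WT libraries with IL-4, and 662.5 and 619.0 with PBS, or -0.51 ± 0.22 and 0.10 ± 0.29 in the authors' deposited tables. Slc30a1 was the gene with an unadjusted p under 0.05 on the higher side with PBS, at 0.57 ± 0.28, and stood at 0.33 ± 0.19 with IL-4 in the authors' deposited tables. Slc39a11 was lowest of the metal class with PBS, at -0.45 ± 0.30 in the authors' deposited table. The iron carriers Slc40a1 and Slc25a37 were at 0.19 ± 0.38 and 0.22 ± 0.26 with IL-4, both within error in the authors' deposited table.

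Single genes of other classes complete the set. Slc23a2, the vitamin C transporter SVCT2, averaged 3474 in NIK KO and 2370 in WT libraries with IL-4, and 2141 and 1869 with PBS, or 0.55 ± 0.18 and 0.20 ± 0.28 in the authors' deposited tables (DESeq2 adjusted p = 0.511 with IL-4). Slc37a3, of the sugar phosphate exchanger family, averaged 666.5 in NIK KO and 468.1 in WT libraries with IL-4, and 268.3 and 310.3 with PBS. Slc29a3 averaged 1402 in NIK KO and 1047 in WT libraries with IL-4, and 728.6 and 726.0 with PBS. Slc29a3, Slc38a7 and Slc26a11 are 3 of the 12 genes listed as lysosomal. Of the 12, 9 had a positive fold change with IL-4 and 5 with PBS. Among all genes with a base mean of 20 or more, 51.0% and 48.6% did. With PBS alone, Slc27a3, a fatty acid transport protein with acyl-CoA synthetase activity, averaged 9.004 in NIK KO and 39.8 in WT libraries, against 33.2 and 38.9 with IL-4. Slc25a35, a mitochondrial carrier, averaged 32.3 in NIK KO and 87.5 in WT libraries with PBS, and 56.6 and 75.02 with IL-4. Their fold changes with PBS were -2.14 ± 0.82 and -1.44 ± 0.55 in the authors' deposited table, neither called by DESeq2 (adjusted p = 1.00).

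**Figure D4:**
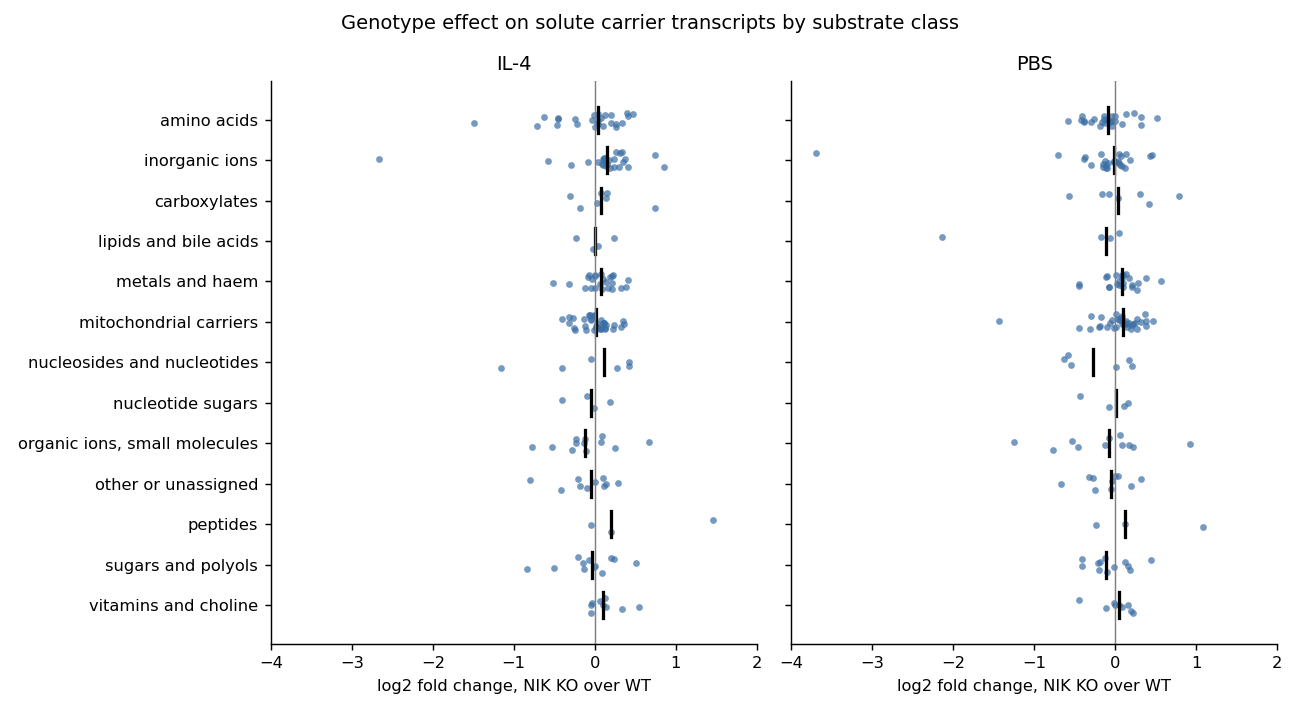
Log2 fold changes of NIK KO over WT from the authors' deposited tables for every transporter measured, by substrate class, with IL-4 (180 genes, left) and PBS (178 genes, right); black bars are class medians. Medians with IL-4 lie between -0.12 and 0.20, and 162 genes with IL-4 and 160 with PBS lie within 0.5 either way. Over all genes with a base mean of 20 or more the quartiles were -0.14 and 0.15 with IL-4 and -0.16 and 0.13 with PBS.

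Mitochondrial carriers, of interest because the series title names mitochondrial respiration, showed small differences in their class medians. Of 36, 19 had positive fold changes with IL-4 and 25 with PBS. The shares over all genes with a base mean of 20 or more were 51.0% and 48.6%. The class medians were 0.01 and 0.09, with a median standard error of 0.22 and 0.30, in the authors' deposited tables. Slc25a40, a carrier of glutathione, was highest with IL-4 at 0.36 ± 0.39, and Slc25a42, a coenzyme A carrier, highest with PBS at 0.46 ± 0.80 in the authors' deposited tables. Slc25a35, given above, was lowest with both, at -0.41 ± 0.48 with IL-4 and -1.44 ± 0.55 with PBS in the authors' deposited tables. Slc25a5 was at -0.01 ± 0.16 with IL-4 and -0.45 ± 0.25 with PBS in the authors' deposited tables. None of the 5 measured carriers under other symbols had an unadjusted p under 0.05 in either table.

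Some class extremes missed an unadjusted p under 0.05. Slc37a1 was lowest among sugar transporters with IL-4, at -0.84 ± 0.52, and Slc22a15 among organic ion carriers, at -0.77 ± 0.61 in the authors' deposited table. With PBS Slc18a2, a vesicular monoamine transporter, was at -1.26 ± 0.80 and Slc22a21, a carnitine transporter, at 0.93 ± 0.60 in the authors' deposited table. The words of Slc22a21 are shared to 33.2% and those of its relative Slc22a5 to 38.7%. Slc2a1 was at -0.13 ± 0.20 with IL-4 and -0.41 ± 0.33 with PBS, and Slc16a13 at -0.57 ± 0.36 with PBS in the authors' deposited tables.

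The NIK KO effect was then compared between treatments. Of the 11 genes higher with IL-4, 8 had a fold change within 0.15 of 0 with PBS. Many genes lay that close: with PBS the quartiles over all genes with a base mean of 20 or more were -0.16 and 0.13 in the authors' deposited table. The 11 were also picked by their p with IL-4, so this count does not show a difference between treatments. The difference itself passed for 0 of 178 transporters (z test on the 2 deposited fold changes, Benjamini-Hochberg adjustment), beside 0.0149% of 13384 genes, and 0 had an unadjusted p under 0.05, beside 0.867%. Slc30a7, a zinc transporter of the Golgi, came first, with 1028 in NIK KO and 785.5 in WT libraries with IL-4 and 607.2 and 828.0 with PBS, a difference of 0.83 ± 0.46 (SE). Both fold changes come from the same mice, which the test does not take into account. With a correlation of 0.5 between their errors, 12 of the 178 transporters had an unadjusted p under 0.05, beside 4.09% of all genes, and 0 an adjusted one, beside 0.149% (20 genes).

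The 15 transporters past 2-fold between IL-4 and PBS had genotype fold changes between -0.71 and 0.42 with IL-4 and between -0.63 and 0.57 with PBS in the authors' deposited tables. None of the 15 had an unadjusted p under 0.05 with IL-4 and 1, Slc30a1, had one with PBS. For Slc7a2 the IL-4 over PBS level differed between genotypes by 0.10 ± 0.36 on the log2 scale, and for Slc30a4 by -0.20 ± 0.37.

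Precision was alike for most members and poor for 2. The standard error of Slc13a3, a sodium-coupled dicarboxylate transporter, was 1.08 with IL-4 and 1.20 with PBS in the authors' deposited tables, 4.58 and 4.17 times the median of genes of like base mean. It averaged 583.7 in NIK KO and 349.1 in WT libraries with IL-4, and 677.2 and 392.0 with PBS. The tables hold no value per library to show which library stands apart. Slc15a2, the peptide transporter PEPT2, had an error of 2.12 with IL-4 in the authors' deposited table, 3.51 times that of like genes, with 65.1 in NIK KO and 23.8 in WT libraries. Errors over 3 times that of like genes occurred in 0.676% of all genes with IL-4 and in 0.709% with PBS. Counts are also uncertain where sequence is shared: besides Slc25a5, Slc28a2 and Slc39a7, this held for Slc38a6, with 59.3% of its words shared. Slc7a6os lies beside Slc7a6 on the other strand, and whether counting used strand is not stated in the labels. Slc16a6 and Slc25a39 lie within 10 Mb of Map3k14, and neither had an unadjusted p under 0.05 in either table.

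**Figure D5:**
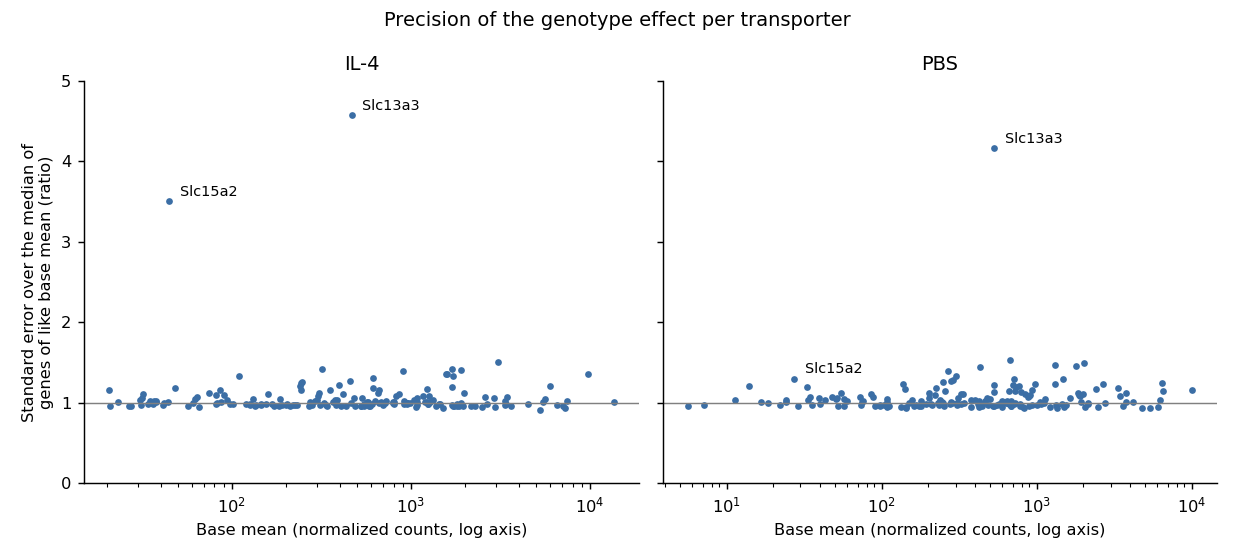
Standard error of the genotype fold change of each transporter divided by the median of 201 genes of like base mean, against base mean on a log axis, with IL-4 (left) and PBS (right). Slc13a3 lies at 4.58 with IL-4 and 4.17 with PBS and Slc15a2 at 3.51 with IL-4, while the others lie near 1.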

How the data were processed

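The 8 libraries were represented by 2 tables of per-gene results, 1 per treatment, each over 4 libraries. The submitters' processing notes name GRCm39 as build and list the tools DESeq2 1.32.0 and Salmon 1.4.0. Per the file headers, the authors deposited the base mean (a signal: counts over size factors, averaged), the log2 fold change with its standard error, the Wald statistic (a score) and a p-value, raw and adjusted. The name of the IL-4 table gives the direction, NIK KO over WT, and it was applied to both. Depth per library is unknown.

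Group means were recovered from the base mean and fold change, since groups are of equal size. Shared 31-base words, transcript lengths, chromosomes and nearness to Map3k14 came from GENCODE M21 (GRCm38). No base position from it is printed. Changes in the NIK KO effect were tested by a z test, two-sided, with Benjamini-Hochberg adjustment. Genes were called at an adjusted p under 0.05. Genes named are those at an unadjusted p under 0.05, past 2-fold, class extremes, textbook transporters, those next to the limit and the highest per kilobase in a class. Members and lists were chosen with earlier results of these data known. Nothing shows whether libraries of a group were separate cultures beyond the mouse number. Python 3.11.15, numpy 2.4.6, pandas 2.3.3, scipy 1.17.1 and matplotlib 3.10.9 were used, and steps were tested on simulated data. Values of some single genes are not reported here.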

Additional observations from a re-analysis of the deposited data

How the results depend on the processing

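No paired analysis was possible because the tables hold no values per library. For the same reason the fits that leave out each replicate in turn and the fit with a replicate block were not run. The count of transporters called stayed at 0 in both tables and in the difference under every alternative tried. The adjusted p of Slc43a3 with IL-4 ranged between 0.0596 and 0.0709 under other adjustment and centring, where 15 or 17 of all genes were called. It was 1.00 when the t distribution (2 degrees of freedom) replaced the normal. With that distribution 0 of all genes were called in either table, and 0 in the difference with 4 degrees of freedom. Those settings therefore could not call a transporter and say nothing particular to Slc43a3.

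Without centring on the median of all genes, the count past 2-fold higher was 13, all 8 of the main count among them, and every IL-4 over PBS level moved up by 0.27 on the log2 scale. The class medians were then 0.46 for amino acids, 0.35 for inorganic ions, 0.22 for metals and haem, 0.27 for mitochondrial carriers, 0.33 for nucleotide sugars, 0.30 for unassigned genes, 0.57 for peptides and 0.53 for sugars and polyols. The medians for metals and haem, mitochondrial carriers, lipids, organic ions and vitamins lay below 0 with centring and above 0 without it. With a base mean minimum of 50 the median for peptides was -0.15. Over all settings the higher count ran between 6 and 13 and the lower count between 5 and 9. The other 194 values that answer a comparison stayed within the limits set. Of these, 22 lay on the other side of 0 from the value reported. The reported medians concerned were 0.13 or less on the log2 scale in either direction, while the 22 values reached up to 0.24. The sign of such a median therefore depends on the setting. Levels across treatments have no replicate check, and 2 mice per genotype limit what the genotype test can show.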
